A study of Mus musculus with 4 samples.

Results

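The chaperones of the endoplasmic reticulum (ER) and the components of the unfolded protein response (UPR) were examined in NIH/3T3 cells, an immortalised line of mouse fibroblasts, after knockdown of *Setd2*, the histone methyltransferase that deposits H3K36me3. Chosen by symbol were the 10 genes *Hspa5*, *Hsp90b1*, *Xbp1*, *Atf6*, *Ern1*, *Dnajb9*, *Pdia4*, *Calr*, *Hyou1* and *Sdf2l1*, which gave 15 of the 34200 transcripts tested by RNA-seq, from 10 of 21945 genes. Knockdown (KD) cells received *Setd2* siRNAs and wild type (WT) cells a Scrambled siRNA, both at 10 nM for 48 h, and 2 libraries of polyadenylated RNA were made from each. All the samples came from 1 cell line and were transfected transiently, and no source ties a library to a transfection. The spread between libraries, on which the errors below rest in part, may therefore be technical. *Ern1*, the gene of the UPR sensor IRE1, rose in KD cells, by 63.1% for its main transcript. The abundant chaperone genes *Hspa5* and *Hsp90b1* had nearly equal levels in KD and WT, with summed changes of 3.53% and -0.339%, and neither passed the test.

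Proteins that enter the secretory pathway fold in the ER with the help of chaperones of the HSP70 and HSP90 families, lectins that bind glycans, and enzymes that form disulfide bonds. When unfolded proteins accumulate, the sensors IRE1, ATF6 and PERK in the ER membrane signal to the nucleus. IRE1 removes a short stretch from the *Xbp1* mRNA so that an active transcription factor is made, ATF6 is released from the membrane by proteases of the Golgi, and PERK slows translation while favouring that of ATF4. Cleaved ATF6 and spliced XBP1 activate chaperone genes. In fibroblasts, which secrete collagen and other matrix proteins, the same chaperones are also needed without stress.

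The sequence through which ATF6 acts, the ER stress response element (ERSE), was looked for in the promoters of the members, because these promoters link the chaperones to their sensors. Promoters were RefSeq sequences of GRCm38.p6, from 250 bases before to 50 bases after each start, and 8 of the 10 members had one. The motif was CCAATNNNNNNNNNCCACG, searched on both strands. It was held by 39 of 32851 promoters, or 0.119%, and 3 of the members, *Hspa5*, *Calr* and *Hsp90b1*, were among these genes. The matches are shown with the fixed bases in capitals and are written in the orientation of the motif.
Hspa5, chr2:34772025-34772043, from 65 to 47 bases upstream of the start, strand of the gene: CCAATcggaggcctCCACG
Calr, chr8:84847075-84847093, from 162 to 144 bases upstream, opposite strand: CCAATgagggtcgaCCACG
Hsp90b1, chr10:86705638-86705656, from 212 to 194 bases upstream, strand of the gene: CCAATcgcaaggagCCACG
Hsp90b1, chr10:86705533-86705551, from 107 to 89 bases upstream, opposite strand: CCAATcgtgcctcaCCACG
The match of *Hspa5* lies before the annotated start of its transcript Hspa5-202, but inside the annotated span of Hspa5-201, which starts further upstream. The shorter motif ERSE-II, ATTGGNCCACG, was held by 0.0365% of all promoters, and the element of XBP1, TGACGTGG, by 0.676%. Neither was found in these windows of the 8 members. A match of letters is a description of the promoter and not a measurement of binding.

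The stretch of *Xbp1* mRNA between the cleavage loops of IRE1 is shown because it decides what these data can say about splicing by IRE1. Both tested transcripts, Xbp1-201 and Xbp1-204, hold it, and the capitals mark the bases of the loops at either end of its 26 bases.
Xbp1: CAGCactcagactatgtgcacctCTG
It spans bases 815 to 840 of Xbp1-201 and bases 533 to 558 of Xbp1-204. Of the 4 annotated *Xbp1* transcripts in GENCODE M21, 3 hold the stretch and 0 hold the joined sequence that is left after its removal. The values of *Xbp1* are therefore sums over unspliced and spliced mRNA, and splicing by IRE1 was not measured.

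The direction of the effects, KD over WT, was inferred. It was taken in part from the negative value of *Setd2*, the target of the siRNAs. A fall of *Setd2* in KD was thus fixed in advance, and its size is given without being a check of the labels. The other ground was the split of the called transcripts, more of which were higher than lower in KD with this sign. The paper also reports more upregulated than downregulated transcripts. The *Setd2* transcript with the highest level fell from 3680.4 normalised estimated counts in WT to 923 in KD, a log2(fold change) of -1.99 (SE 0.09, q = 0.0103 by Sleuth's likelihood ratio test). In bulk cells, fewer cells of a kind and less RNA per cell cannot be told apart. All 7 fibroblast markers had a mean of at least 100 counts, with the lowest at 3112, while 1 of 4 epithelial, 1 of 3 macrophage and 0 of 2 endothelial markers reached it, and *Epcam* and *Krt18* were not among the tested transcripts. Summed counts of the markers in WT and KD were 1002976 and 899416 for the fibroblast, 119 and 158 for the epithelial, 361 and 409 for the macrophage and 51.9 and 74.8 for the endothelial list. Counts here are the reads that Kallisto assigned to a transcript, scaled by the size factor of the library, and q is the p-value adjusted by Benjamini-Hochberg over all transcripts. The deposited table gives a mean over the 4 libraries and an effect, from which the level of each group was computed, and values of single libraries were not analysed here. The depth of each library is therefore unknown, and overlap of KD and WT libraries was not examined. Of all transcripts, 12.5% were called at q under 0.05, and of those with a mean of at least 1000 counts 30.8%. *Actb*, the reference gene of the study for RT-qPCR, was itself higher in KD, by a log2(fold change) of 0.46 (SE 0.11, q = 0.0310). Dividing by *Actb* lowers every value by that amount and takes the median of all genes with at least 100 counts from 0.04 to -0.42, so directions below are relative to the size factors of Sleuth. The division turned the summed value of *Hspa5*, *Pdia4*, *Calr* and *Hyou1* from above to below 0.

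Among the 15 transcripts of the members, 3 were called, 2 higher and 1 lower in KD. These 3 were among the 12 with a mean of at least 1000 counts, and at that level 20.3% of all transcripts were called higher and 10.5% lower, so the share of called members was near the background. The same 3 transcripts were called by the Wald test, which called 18.2% of all transcripts, and after q-values were recalculated over transcripts with a mean of at least 100 counts, of which 34.2% were called. The moderated test of limma, which called 9.68% of all transcripts, kept 2 of them and not Atf6-201.

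**Figure D1:**
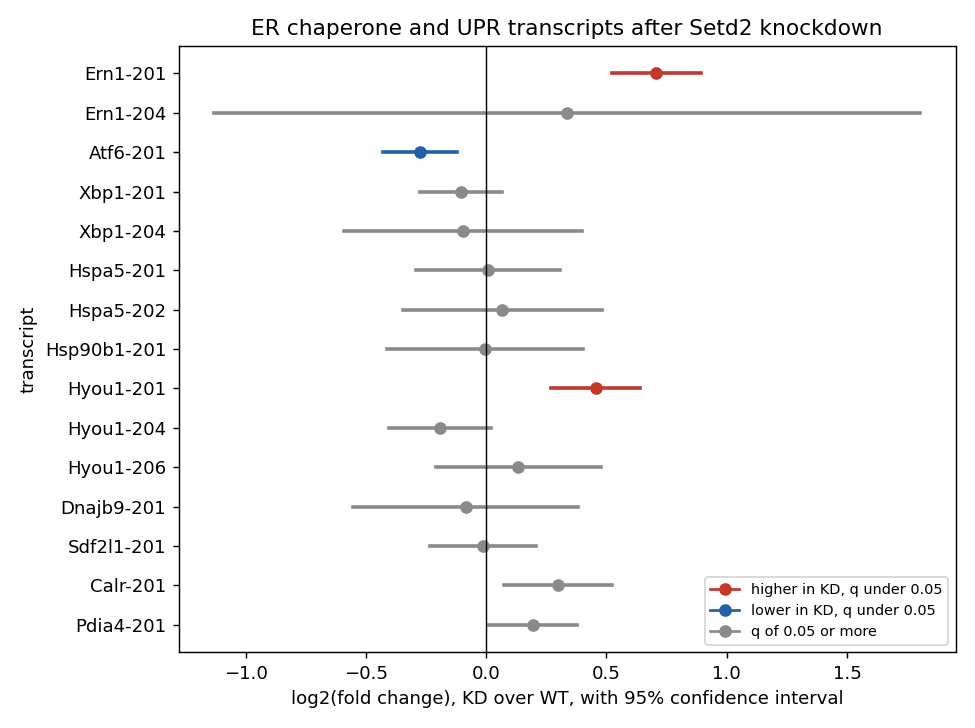
The log2(fold change) of KD over WT is plotted for the 15 transcripts, with bars for the 95% confidence interval from Sleuth's standard error (2 KD and 2 WT libraries). Ern1-201 (0.71) and Hyou1-201 (0.46) lie above 0 and Atf6-201 (-0.28) below it, while the intervals of Hspa5, Hsp90b1, Dnajb9, Sdf2l1 and Xbp1 include 0.

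*Ern1* encodes IRE1α, a kinase and endonuclease of the ER membrane that splices *Xbp1* and degrades other mRNAs at the ER. Its main transcript, Ern1-201 (chromosome 11, 106394650 to 106487796 on the minus strand, GRCm38, 22 exons), had a level of 1463 counts in WT and 2387 in KD. This was a log2(fold change) of 0.71 (SE 0.09, 95% interval 0.52 to 0.89, likelihood ratio q = 0.0117, limma adjusted p = 0.0201), and it was the largest rise of the members. The summed change of the gene stood above 96.0% of all genes with at least 100 counts. After division by *Actb* the value was 0.25 and no longer passed the test (Wald q = 0.193). The second transcript, Ern1-204, ends before the main one and was near the lower end of what was tested, with 20.5 counts in WT and 26.0 in KD, and its interval of -1.13 to 1.80 allows a change in either direction. It made up 1.38% of the counts of the gene in WT and 1.08% in KD.

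*Atf6* encodes the sensor that becomes a transcription factor after cleavage in the Golgi. Its transcript Atf6-201 (chromosome 1, 170704674 to 170867771, minus strand, 16 exons) had 5127 counts in WT and 4233 in KD, a fall of 17.4% (log2(fold change) -0.28, SE 0.08, interval -0.43 to -0.12, q = 0.0380). The call depended on the test. limma gave an adjusted p of 0.0783, and centring the effects on the GC content of the transcripts left a value of -0.20 with a Wald q of 0.0684. *Atf6* and *Ern1* thus moved in opposite directions among the sensors, by likelihood ratio q-values. After division by *Actb* the value of *Atf6* was -0.73.

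*Xbp1* encodes the transcription factor made after IRE1 has cut its mRNA. Xbp1-201 (chromosome 11, 5520659 to 5525893, plus strand, 5 exons) had 2716 counts in WT and 2526 in KD, a log2(fold change) of -0.10 (SE 0.09, interval -0.27 to 0.06, q = 0.114). Its likelihood ratio p of 0.0320 stood beside a Wald p of 0.227. Such pairs were frequent in this table, since 2599 of the 11615 transcripts with a likelihood ratio p under 0.05 had a Wald p of 0.05 or more. Xbp1-204, a shorter form that starts downstream, had 174 counts in WT and 163 in KD, with the same log2(fold change) of -0.10 and an interval of -0.59 to 0.40. The share of Xbp1-204 was 6.02% in WT and 6.05% in KD, so the balance of the forms that could be told apart was alike in both groups.

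*Hspa5* encodes BiP, the HSP70 chaperone of the ER lumen that also binds the sensors. Hspa5-202 (chromosome 2, 34772095 to 34776531, plus strand, 8 exons) had 38493 counts in WT and 40303 in KD, a log2(fold change) of 0.07 (SE 0.21, interval -0.35 to 0.48, q = 1). The longer Hspa5-201 (34771970 to 34777547) had 14524 in WT and 14586 in KD, with 0.01 (SE 0.15, interval -0.29 to 0.31, q = 0.646). The summed value of 0.05 was -0.41 after division by *Actb*. On the scale of percent, the interval of Hspa5-202 runs from -21.4 to 39.5. It uses normal quantiles although its SE rests on 2 degrees of freedom, so it is likely too narrow. It does not exclude a rise of the size of that of Ern1-201. Changes within the interval were not detectable with these libraries. Hspa5-201 made up 27.4% of the counts of the gene in WT and 26.6% in KD. Both forms hold the same number of coding bases, 1965, and only 4.26% of the 31-base words of Hspa5-202 occurred in no other tested transcript, so the division of counts between them is uncertain while their sum is less so.

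*Hsp90b1* encodes GRP94, the HSP90 chaperone of the ER. Hsp90b1-201 (chromosome 10, 86690840 to 86705509, minus strand, 18 exons) had 55832 counts in WT and 55643 in KD, a log2(fold change) of -0.005 (SE 0.21, interval -0.41 to 0.40, q = 1). The centre of the interval was the closest to 0 of all the members, but its width was among the largest at this level of counts. *Dnajb9* encodes ERdj4, an HSP40 co-chaperone of BiP that also acts on IRE1. Dnajb9-201 (chromosome 12, 44205559 to 44210326, minus strand, 3 exons) had 1575 counts in WT and 1485 in KD, with a log2(fold change) of -0.08 (SE 0.24, interval -0.55 to 0.38, q = 1). Of its 31-base words, 88.7% occurred in no other gene. *Sdf2l1* encodes a partner of ERdj3 that keeps client proteins soluble. Sdf2l1-201 (chromosome 16, 17130138 to 17132383, minus strand, 3 exons) had 1003 counts in WT and 993 in KD, with -0.01 (SE 0.11, interval -0.24 to 0.21, q = 0.154). Its likelihood ratio p of 0.0539 stood beside a Wald p of 0.900, as for *Xbp1*.

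*Hyou1* encodes GRP170, a large HSP70-like protein that exchanges the nucleotide of BiP, and it was the member whose transcripts differed most among themselves. Hyou1-201 (chromosome 9, 44379490 to 44392369, plus strand, 26 exons) had 3892 counts in WT and 5336 in KD. Its log2(fold change) of 0.46 (SE 0.09, interval 0.27 to 0.64, q = 0.0194, limma adjusted p = 0.0302) was called, but fell to -0.001 (Wald q = 0.998) after division by *Actb*. Hyou1-204 had 2214 counts in WT and 1937 in KD, with -0.19 (SE 0.11, interval -0.41 to 0.02, q = 0.104). Hyou1-206 had 1841 in WT and 2019 in KD, with 0.13 (SE 0.18, interval -0.21 to 0.48, q = 0.422). The summed change of the gene was 0.23 (16.9%), which turned to -0.23 after division by *Actb*, and the gene-level q-value, which combines the transcripts and carries no direction, was 0.00684.

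The shares of the *Hyou1* transcripts moved from 49.0% in WT to 57.4% in KD for Hyou1-201, from 27.9% to 20.8% for Hyou1-204 and from 23.2% to 21.7% for Hyou1-206. The intervals of Hyou1-201 and Hyou1-204 did not overlap, but the difference between them was not tested, since both draw on the same reads. All 3 forms have 26 exons and 2997 coding bases, and Hyou1-204 is the shortest with 3374 bases against 4432 for Hyou1-201 and 4489 for Hyou1-206. Of their words of 31 bases, the default unit by which Kallisto matches reads, only 2.5%, 6.67% and 1.75% occurred in no other tested transcript. After centring on GC content, Hyou1-204 was also called, with a log2(fold change) of -0.41 (Wald q = 0.00185), beside 0.36 for Hyou1-201 (Wald q = 0.00156). The GC content of Hyou1-204 was 56.0%, the highest of the *Hyou1* forms.

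*Calr* encodes calreticulin, the soluble lectin chaperone that binds calcium and glycoproteins. Calr-201 (chromosome 8, 84841850 to 84846934, minus strand, 9 exons) had 52711 counts in WT and 64825 in KD. The log2(fold change) of 0.30 (SE 0.12, interval 0.07 to 0.52) did not pass the test (q = 0.0934, limma adjusted p = 0.124), and the value was -0.16 after division by *Actb*. *Pdia4* encodes ERp72, a protein disulfide isomerase. Pdia4-201 (chromosome 6, 47796141 to 47813430, minus strand, 10 exons) had 10510 counts in WT and 12023 in KD, with 0.19 (SE 0.09, interval 0.01 to 0.38, q = 0.111), and -0.26 after division by *Actb*. Their intervals, which are not adjusted for the number of transcripts, lay above 0, while their q-values were above 0.05. Gene-level q-values, which called 24% of all genes, were below 0.05 for *Ern1* (0.0123), *Atf6* (0.0244) and *Hyou1* (0.00684) and for none of the other 7 members.

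**Figure D2:**
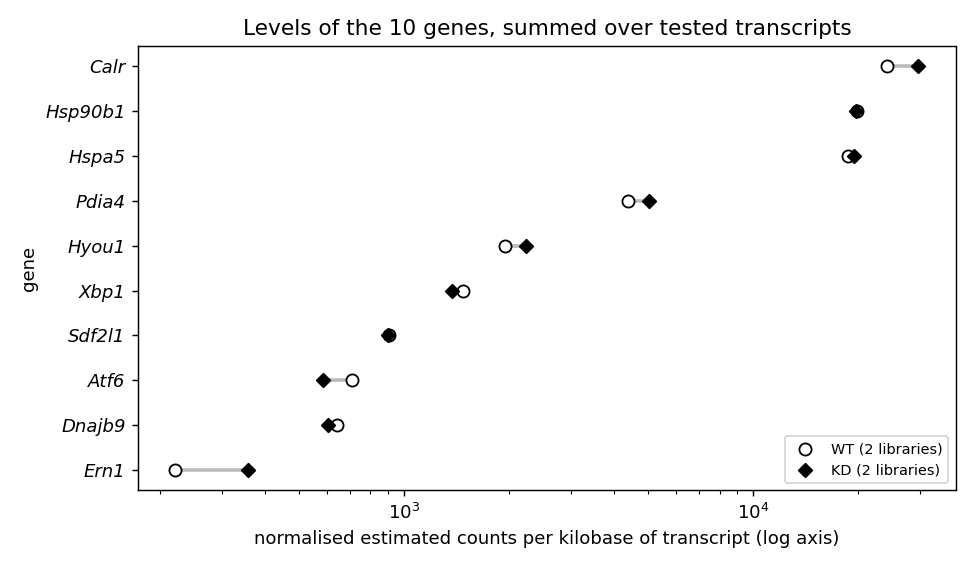
The level of each gene, summed over its tested transcripts, is plotted as normalised estimated counts per kilobase on a log axis, with open circles for WT and filled diamonds for KD (2 libraries each). Calr (24135 in WT) and Ern1 (221 in WT) are at the ends of the order, and Ern1 shows the widest gap between WT and KD.

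Per kilobase of transcript, the abundant chaperones stood far above the sensors in WT. *Calr* had 24135 counts per kilobase, *Hsp90b1* 19764 and *Hspa5* 18687. *Hsp90b1* and *Hspa5* were neighbours that differed by 0.08 on the log2 scale, less than the SD between libraries of 0.21 for each. The folding enzymes and co-chaperones were lower, with 4381 for *Pdia4*, 1944 for *Hyou1*, 905 for *Sdf2l1* and 640 for *Dnajb9*. The regulators were among the low genes, with 1470 for *Xbp1*, 708 for *Atf6* and 221 for *Ern1*. *Atf6* and *Dnajb9* differed by 0.14, less than the SD of 0.24 for *Dnajb9*, and their order was the other way round in KD. The other neighbours in WT differed by 0.29 or more, beyond the SD of either gene.

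The spread between libraries of a group differed widely among the members. It was computed from the deposited variances with 2 degrees of freedom for each transcript and compared with the 500 transcripts of nearest mean. The SD on the log2 scale was 0.014 for Ern1-201, and 1.4% of its neighbours had a smaller one. It was 0.022 for Hyou1-201 (6.8% of neighbours smaller) and 0.037 for Atf6-201 (16.8%). The SE that Sleuth used for these called transcripts was larger than their SD, at 0.09 for Ern1-201, 0.09 for Hyou1-201 and 0.08 for Atf6-201. For Hspa5-202, with a wide spread, the SE equalled the SD. For Ern1-201 the SD between libraries was also below the SD of read assignment of 0.035 that Sleuth estimated. At the other end were Dnajb9-201 with 0.239 (92.6% of neighbours smaller), Hspa5-202 with 0.211 (91.8%) and Hsp90b1-201 with 0.208 (90.0%). For these 3, the SD of read assignment was at most 0.034. The spread of the main transcript was above that of 90% of its neighbours in 2 of the 10 members and in 7 of the 129 other ER genes described below, whose median was 49.6%. Over the disulfide isomerases and oxidases the median was 77.9%, with 97.2% for *Txndc5*, 88.2% for *Pdia3* and 85.6% for *Pdia6*.

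**Figure D3:**
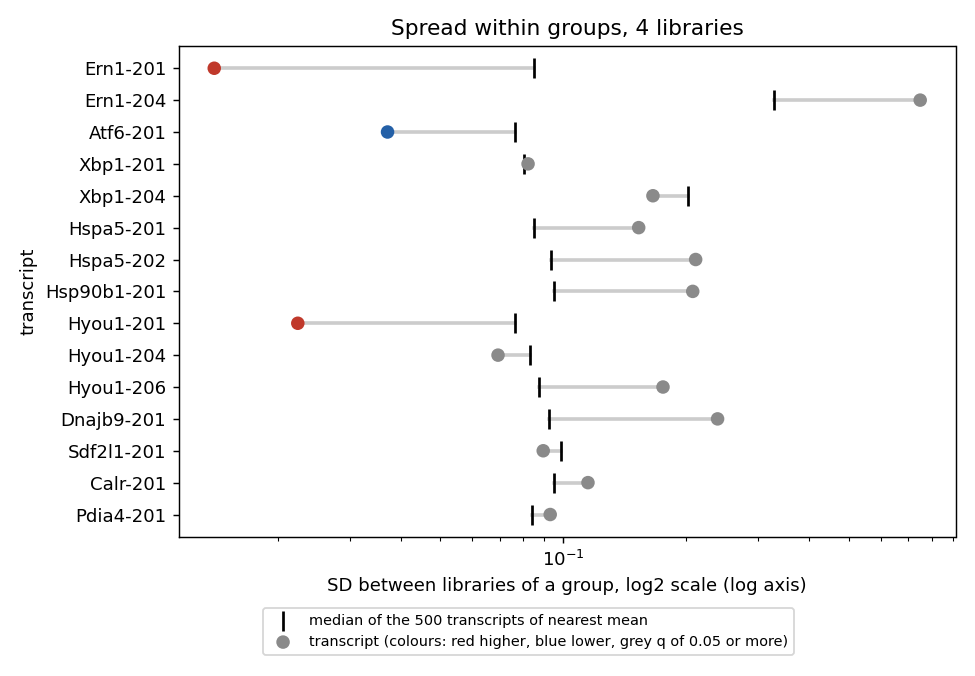
The SD between libraries of a group on the log2 scale (log axis, from 2 degrees of freedom) is plotted as points for the 15 transcripts, with ticks for the median of the 500 transcripts of nearest mean. Ern1-201 (0.014) and Hyou1-201 (0.022) lie far below their ticks, and Dnajb9-201 (0.239), Hspa5-202 (0.211) and Hsp90b1-201 (0.208) lie above theirs.

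The other genes of the pathway were taken from 11 groups with 129 tested genes, none of them a member. A gene was counted as higher, or as lower, if any transcript of it was called so. Of the 129 genes, 26 had a higher and 19 a lower transcript (18 and 9 by limma), against 10.2% and 7.43% of all gene symbols. Among gene symbols with a summed mean of at least 1000 counts, a level which most of these genes reach, the background was 23.4% higher and 12.9% lower. The median log2(fold change) was 0.04 over the 127 of them with a mean of at least 100 counts. It was also 0.04 over all genes at that level. The medians of log2(fold change) given for the groups below use the same limit. Rises of less than 0.46, such as those of *Atf4*, *Srprb* and *Pdgfrb*, turn to falls after division by *Actb*.

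The PERK-ATF4-CHOP group had the highest median of the 11 groups. Of its 9 genes, 5 had a higher and 0 a lower transcript, with a median of 0.33, which was -0.13 after division by *Actb*. *Chac1*, which degrades glutathione and is a target of ATF4, rose from 2775 to 6439 counts (log2(fold change) 1.21, SE 0.08, q = 0.0103). *Ddit3*, the gene of the transcription factor CHOP, rose from 3601 to 7088 (0.98, SE 0.08, q = 0.0103). The main transcript of *Ppp1r15a*, which encodes GADD34, a subunit that returns eIF2α to its active form, rose from 3670 to 7314 (0.99, SE 0.10, q = 0.0112), while the sum over its transcripts changed by 0.63. *Trib3*, a pseudokinase induced by CHOP, rose from 3489 to 6772 (0.96, SE 0.17, q = 0.0201), and *Atf4* from 27045 to 33965 (0.33, SE 0.08, q = 0.0280). The 95% intervals of the fold were 2.08 to 2.59 for *Chac1* and 1.77 to 2.19 for *Ddit3*, while that of Hspa5-202 had its upper end at a rise of 39.5%. These intervals use normal quantiles and are likely too narrow, and the differences between these genes were not tested. *Eif2ak3*, the gene of PERK itself, had 1464 counts in WT and 1484 in KD with no called transcript. Phosphorylation of eIF2α and the activity of its kinases were not measured.

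Of 8 other sensors and activating proteases, 2 had a higher and 1 a lower transcript. *Atf6b*, the paralogue of *Atf6*, rose from 5663 to 8555 counts (0.60, SE 0.09, q = 0.0171), so that it moved the other way from *Atf6*. Its value stayed above 0 after division by *Actb*, but whether it still passed the test was not examined. The difference between the paralogues was not tested. *Mbtps2*, the site-2 protease that releases ATF6, had 1 lower transcript (-0.28, SE 0.09, q = 0.0462, limma adjusted p = 0.0889), but its summed change was -0.08. The HSP70 system beside the members had 0 higher and 1 lower of 9 genes, with a median of -0.09. The lower one was *Dnajc3*, the co-chaperone P58IPK that inhibits PERK, which went from 2986 to 2012 counts (-0.57, SE 0.14, q = 0.0368, limma adjusted p = 0.0502).

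Of 12 disulfide isomerases and oxidases, 0 had a higher and 3 a lower transcript, with a median of -0.05. *Ero1l*, the oxidase that recharges the disulfide isomerases, fell from 12149 to 6629 counts (-0.87, SE 0.12, q = 0.0155), and *Tmx3*, a membrane-bound isomerase, from 8444 to 5416 (-0.64, SE 0.09, q = 0.0156). The abundant isomerases had small summed changes, at 0.05 for *P4hb*, 0.10 for *Pdia3* and 0.14 for *Pdia6*, and none was called. Of 13 lectin chaperones and glycan enzymes, 5 had a higher and 0 a lower transcript, with a median of 0.19 (-0.27 after division by *Actb*). The rises of *Dad1* and *Uggt1* had limma adjusted p of 0.0641 and 0.101. The largest rise was that of *Ddost*, a subunit of the oligosaccharyltransferase, from 8752 to 12612 counts (0.53, SE 0.08, q = 0.0160). *Canx*, the membrane-bound lectin chaperone related to calreticulin, had 52834 counts in WT and 55525 in KD and was not called.

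ER-associated degradation, which returns misfolded proteins to the cytosol for the proteasome, had 7 higher and 0 lower of 18 genes, with a median of 0.19 (-0.27 after division by *Actb*). Among those called were *Nploc4*, *Faf2* and *Vcp*, whose products act together in pulling proteins from the membrane, and *Ube2j1*, *Derl1* and *Sel1l* of the ubiquitin ligase complexes. The largest rise was that of *Nploc4*, from 4314 to 7530 counts (0.80, SE 0.08, q = 0.0103). limma did not call *Ube2j1*, *Derl1* and *Sel1l* (adjusted p from 0.0661 to 0.0810). Several genes of this group are known to be induced by the UPR. Of these, *Derl1* and *Sel1l* had summed changes of 0.34 and 0.30, while *Syvn1*, *Herpud1* and *Edem1*, with 0.29, 0.10 and 0.01, were not called. *Derl2*, *Edem3* and *Selenos*, also of this group, were not called either, with -0.06, 0.01 and -0.21. Of 17 genes of the translocon and signal peptidase, 1 had a higher and 4 a lower transcript. *Srprb* of the signal recognition particle receptor rose (0.37, SE 0.08, q = 0.0302, limma adjusted p = 0.0631). Its partner *Srpr* fell (-0.49, SE 0.08, q = 0.0150), as did *Spcs1* of the signal peptidase, from 8064 to 4622 counts (-0.80, SE 0.08, q = 0.0106), and *Ssr1* and *Ssr3* of the translocon-associated complex (-0.66 and -0.71).

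Of 16 collagen chaperones and prolyl hydroxylases, 2 had a higher and 4 a lower transcript, with a median of -0.10. The falls of *Fkbp14*, *P3h3* and *Plod1* had limma adjusted p from 0.0502 to 0.0646. *Fkbp7*, a prolyl isomerase of the ER, fell from 1369 to 687 counts (-0.99, SE 0.14, q = 0.0156). A minor transcript of the lysyl hydroxylase *Plod2* rose from 180 to 381 counts (1.08, SE 0.31, q = 0.0420), and the sum of the gene changed by 0.66. *Serpinh1*, the collagen chaperone HSP47, had 71320 counts in WT and 63097 in KD with no called transcript. Of 6 mRNAs known as substrates of IRE1 in fibroblasts, 1 rose and 1 fell. *Scara3* fell (-0.36, SE 0.11, q = 0.0487, limma adjusted p = 0.0889) and *Pdgfrb* rose (0.34, SE 0.09, q = 0.0338, limma adjusted p = 0.0696), while *Bloc1s1* had a summed change of 0.04 and was not called. Their median was -0.09, as was that of the HSP70 system, and the activity of IRE1 was not measured.

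Of 12 genes of KDEL retrieval and COPII export, 1 had a higher and 3 a lower transcript. The falls of *Sar1a* and *Kdelr2* had limma adjusted p of 0.0558 and 0.0677. *Sec13* of the COPII coat rose (0.60, SE 0.13, q = 0.0294) and *Kdelr3*, a receptor that returns chaperones to the ER, fell (-0.36, SE 0.10, q = 0.0345, limma adjusted p = 0.0666). Of 9 regulators of ER calcium and of cell death at the ER membrane, 2 had a higher and 2 a lower transcript. *Rcn1*, a calcium-binding protein of the lumen, fell from 6839 to 4835 counts (-0.50, SE 0.08, q = 0.0158). A minor transcript of *Tmbim6*, a suppressor of cell death that restrains IRE1, rose from 174 to 347 counts (0.99, SE 0.24, q = 0.0343), although the sum of the gene changed by only 0.21.

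**Figure D4:**
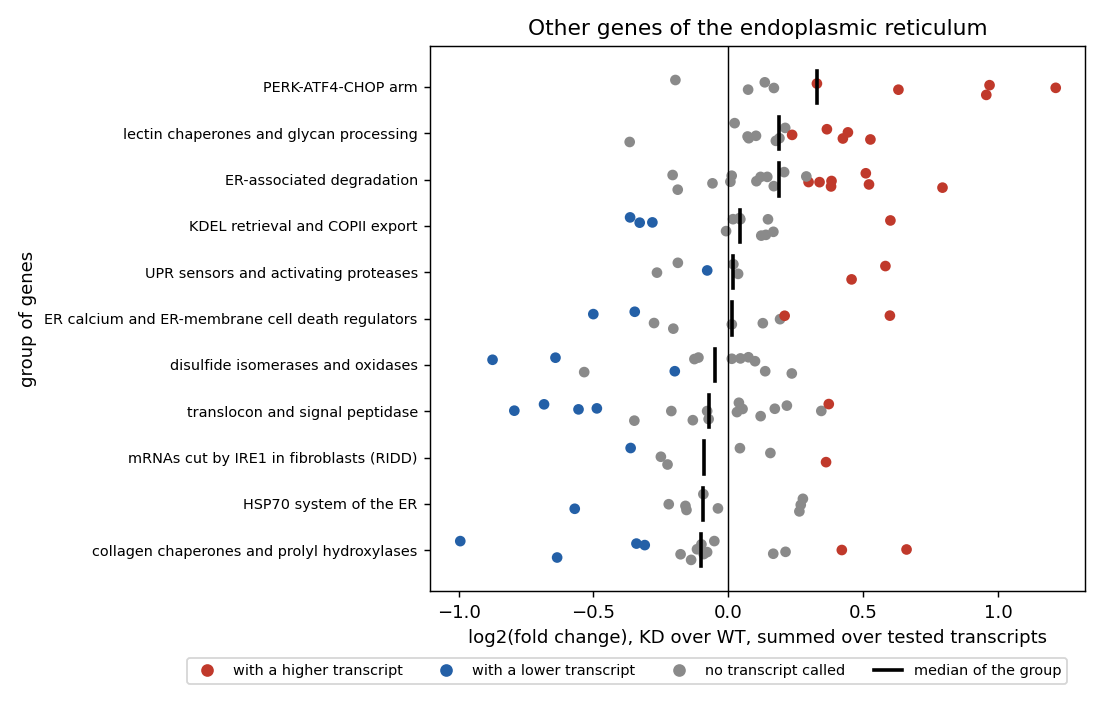
The log2(fold change) of KD over WT, summed over tested transcripts, is plotted for the genes of 11 ER groups with a mean of at least 100 counts, in red or blue where a transcript was called higher or lower and with a black line at the median of each group. The PERK-ATF4-CHOP group has the highest median (0.33) and the collagen chaperones the lowest (-0.10).

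The genes that share the ERSE with *Hspa5*, *Calr* and *Hsp90b1* did not move as 1 group. Of 18 other tested genes with the motif in their promoter, 2 had a higher transcript (*Alg12* and *Pan2*) and 4 a lower one (*Dnajc3*, *Xlr3a*, *Xlr3c* and *Zfp57*), and their median was 0.14 over the 13 with at least 100 counts. These names follow from the motif, and those called were named after their values were seen. Of 116 other tested genes with the XBP1 element, 21 had a higher and 9 a lower transcript. Their median was 0.05 over the 93 with at least 100 counts. Both medians turn below 0 after division by *Actb*. The counts compare with 10.2% higher and 7.43% lower of all gene symbols, and with 23.4% and 12.9% of those with a summed mean of at least 1000 counts.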

How the data were processed

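The authors prepared stranded libraries of polyadenylated RNA, quantified reads with Kallisto and compared 2 KD with 2 WT libraries in Sleuth. Their transcript index and low-count filter are not given in the sources used here. The deposited means, effects and standard errors are on the natural log scale of normalised estimated counts plus 0.5. The deposited p-values and q-values come from Sleuth's likelihood ratio and Wald tests across the whole table. These comparison columns were used because values of single libraries were not analysed here, and depth is unknown.

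Effects were converted to log2, group levels were computed from mean and effect, and levels were summed over the transcripts of a gene. Confidence intervals use the deposited standard errors with normal quantiles, and are likely too narrow where the standard error rests on 2 degrees of freedom. A transcript was called at a likelihood ratio q-value under 0.05. The variance within groups was rebuilt from the deposited sums of squares and also tested with limma 3.58.1, with a trend on the mean, after a test on simulated data. Annotation, sequences and GC content came from GENCODE M21 (GRCm38), and promoters from RefSeq. The text names all members, in each pathway group the called gene with the largest rise and the largest fall (mean of at least 100 counts), *Setd2* and *Actb*, and other genes named were chosen after their values were seen. Members, lists and tests were chosen with earlier results of these data known.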

Additional observations from a re-analysis of the deposited data

How the results depend on the processing

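No paired analysis was possible because the analysed tables hold no values of single libraries, and for the same reason leaving out each replicate in turn was not run. Over the members, the count of 3 called transcripts was kept by the Wald test and with q-values recalculated over transcripts with a mean of at least 100 counts, and the same 3 were called by both. limma called 2 of them. Centring on GC content also called 3, but only 2 were shared, with Hyou1-204 (lower) in place of Atf6-201, and division by *Actb* called 4, all lower, of which only Atf6-201 was shared. Of the ER list genes, the 26 higher became 50 with recalculated q-values and 57 at a q-value under 0.1, and the 19 lower became 31 and 36, and 9 with limma. The Wald test gave 38 and 25, and limma 18 higher. Division by *Actb* moved the summed log2(fold change) to -0.41 for *Hspa5*, -0.46 for *Hsp90b1*, -0.56 for *Xbp1*, -0.73 for *Atf6*, 0.25 for *Ern1*, -0.54 for *Dnajb9*, -0.26 for *Pdia4*, -0.16 for *Calr*, -0.23 for *Hyou1* and -0.47 for *Sdf2l1*, which turned *Hspa5*, *Pdia4*, *Calr* and *Hyou1*, and Hyou1-201 came to -0.001. Centring on GC content moved *Xbp1* to -0.20, *Atf6* to -0.20, *Ern1* to 0.66, *Hyou1* to 0.11 and *Sdf2l1* to -0.15. Centring on the median of all transcripts moved *Atf6* to -0.32, *Ern1* to 0.65 and *Hyou1* to 0.18, and the most abundant transcript alone gave 0.46 for *Hyou1*. The causes were not tested, other than that the *Actb* division is a constant shift of -0.46 and that looser or fewer tests change the number called by construction.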
